A study of Homo sapiens with 12 samples.

Results

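Expression of 9 enzymes of serine synthesis and of the folate-bound carbon cycle was examined in K562 cells after inhibition of the deubiquitinase USP7. The genes were taken by name (PHGDH, PSAT1, PSPH, SHMT1, SHMT2, MTHFD1, MTHFD2, MTHFD1L and ALDH1L2), and all 9 were found among the 60609 genes of the deposited count files and passed the filter on low counts that left 13895 genes. The established line K562 comes from human chronic myeloid leukemia, and FT671 is an inhibitor of USP7. There were 3 libraries from cells given DMSO, the solvent, and 3 from cells given 10 μM FT671, each for 48 h, made from total RNA after removal of ribosomal RNA. The study asked whether USP7 inhibition changes gene expression in leukemic cells, and these enzymes are not named in its text.

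Cells make serine from a glycolytic intermediate in 3 steps, catalyzed by PHGDH, PSAT1 and PSPH in that order. SHMT1 in the cytosol and SHMT2 in mitochondria then pass a carbon unit from serine to tetrahydrofolate, leaving glycine. In mitochondria MTHFD2 oxidizes that unit, MTHFD1L releases it as formate and ALDH1L2 can instead burn it to carbon dioxide with gain of NADPH, while MTHFD1 carries out the matching reactions in the cytosol and feeds purine and thymidylate synthesis. The pathway is known for its high activity in dividing cells, and ATF4 and MYC are known activators of many of its genes.

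Depth ranged from 5320245 to 14250500 counts in the DMSO libraries and from 4555220 to 11437804 in the FT671 libraries, and 3 counts, the smallest expression regarded as detectable, were at most 0.659 CPM. This floor covers counting error only. DMSO replicate 3 stood apart from the other DMSO libraries, since its chi-square over genes, divided by the degrees of freedom, was 7.55 and 8.73 against them and 2.07 to 3.2 for the other pairs of replicates. Values without it are therefore given below. Of 9 K562 and erythroid markers, 8 passed the filter on low counts, with GATA1 at 297 CPM and TFRC at 565 CPM on average in DMSO. HBE1, a globin gene on the same list, was at 0.607 CPM. Of 9 markers of other blood cells, MS4A1 had 0 counts in every library and CD14, MPO and NCAM1 were at most 0.148 CPM on average in either group. The list summed to between 156 and 183 CPM in DMSO and between 201 and 211 CPM after FT671, carried by PTPRC, LYZ and CD3D. The part of this difference in the results was not tested. The transcript of USP7 itself, which the inhibitor does not target as RNA, fell from 119 ± 12.3 to 33.1 ± 3.38 CPM (SD, n = 3 each).

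After FT671, PHGDH, PSPH, SHMT2 and ALDH1L2 were downregulated, MTHFD1 was upregulated, and PSAT1, SHMT1, MTHFD2 and MTHFD1L did not pass the test. Genes were called at 0.05 on the p-value of the edgeR quasi-likelihood test after Benjamini-Hochberg adjustment over all 13895 genes. In bulk RNA, fewer cells that express a gene and less RNA of it per cell cannot be told apart. Thus 4 of 9 enzymes were lower, where 26.5% of all genes tested were lower, and 1 of 9 was higher, where 23.6% of all genes were higher. The study's methods set a threshold of 1e-05 on adjusted p-values from DESeq2. At 1e-05 in edgeR, PHGDH and ALDH1L2 were called lower (4.13% of all genes tested were) and 0 enzymes were called higher (1.79% of all genes). With DESeq2's Wald test SHMT2, which was lower (adjusted p = 6.81e-07), and MTHFD1, which was higher (adjusted p = 2.97e-10), also passed 1e-05. The median log2 fold change of the 9 enzymes was −0.12, and that of all genes tested was −0.0103. Every FT671 library lay below every DMSO library for 5 enzymes (30.3% of all genes) and above for 2 (26.8% of all genes). Calls at 1e-05 changed when a library was left out. Without FT671 replicate 1, 2 or 3, 0 enzymes were called lower, and 1 without DMSO replicate 1 or 2. The log2 fold changes over the fits leaving out a library stayed at −0.92 to −0.81 for PHGDH and −1.18 to −0.99 for ALDH1L2. Without DMSO replicate 3, 3 enzymes were called lower at 1e-05 and 1, MTHFD1, was called higher.

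**Figure D1:**
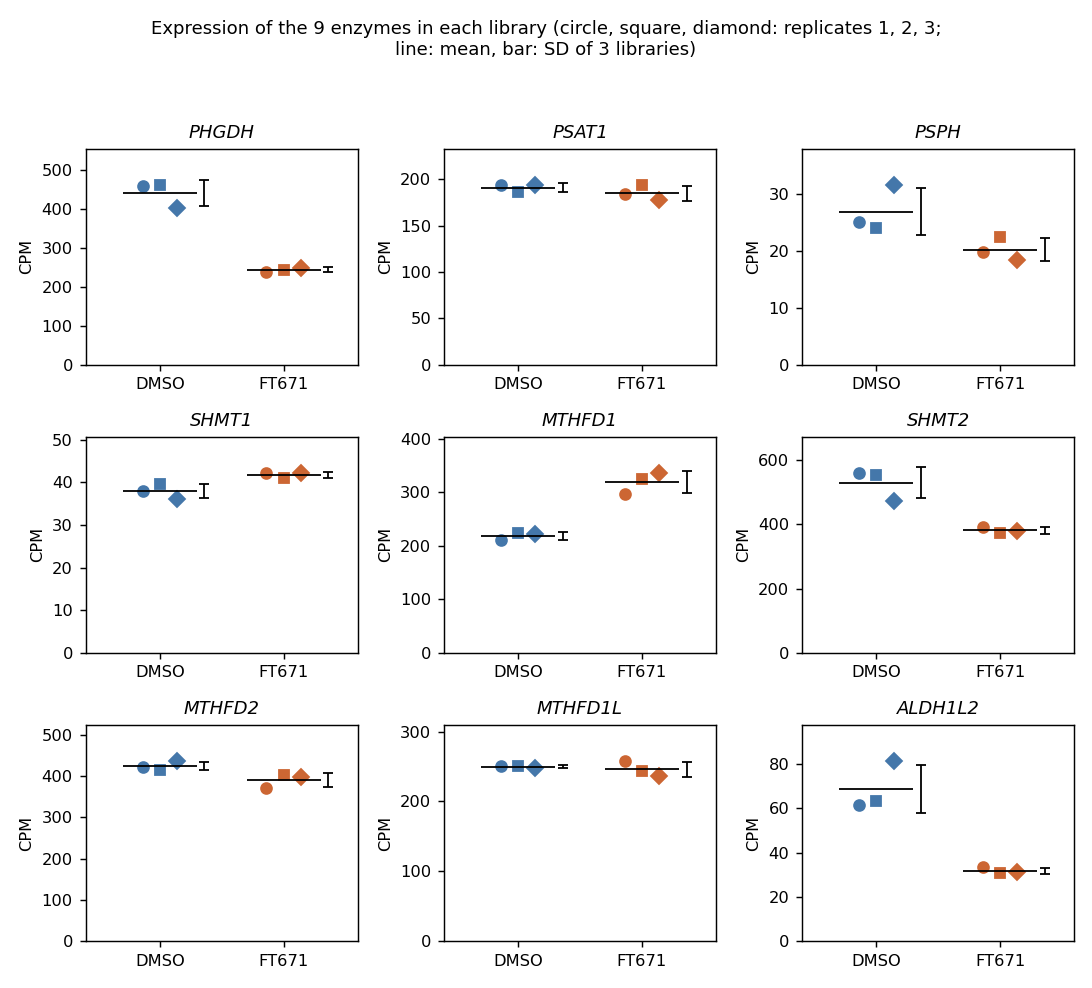
Expression of each enzyme in CPM (y axis, from 0, a scale of its own in each panel) in the DMSO and FT671 libraries, with the mean as a line and the SD of 3 libraries as a bar. The FT671 libraries lie below all DMSO libraries for PHGDH, PSPH, SHMT2, MTHFD2 and ALDH1L2, and above them for SHMT1 and MTHFD1.

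Per length the enzymes differed widely in level. Levels between genes are given as CPM per kb of the canonical transcript in GENCODE, which assumes that this transcript is the one expressed. In DMSO, SHMT2 was highest at 245 ± 22.4 CPM per kb (SD, n = 3), followed by PHGDH at 236 ± 17.4. The ranges of mean ± SD of this pair overlapped, and differences between genes within libraries were not tested here. MTHFD2 (96.6 ± 2.37) and PSAT1 (86.7 ± 2.06) came next, then MTHFD1L (72.5 ± 0.473) and MTHFD1 (69.2 ± 2.33). SHMT1 (15.0 ± 0.661), PSPH (13.6 ± 2.09) and ALDH1L2 (9.27 ± 1.48) were lowest, and SHMT1 and PSPH overlapped in mean ± SD. On this scale the most expressed enzyme, SHMT2, was above 97.1% of all genes tested or level with them, and ALDH1L2 was close to the middle of all genes (46.6%), both from the mean over the 6 libraries. After FT671 the order was SHMT2 (177 ± 5 CPM per kb), PHGDH (131 ± 2.98), MTHFD1 (101 ± 6.32), MTHFD2 (88.8 ± 3.80), PSAT1 (84.1 ± 3.77) and MTHFD1L (71.4 ± 3.13). MTHFD2 and PSAT1 now overlapped in mean ± SD, and MTHFD1 had moved above both of them. SHMT1 (16.5 ± 0.282), PSPH (10.2 ± 1.02) and ALDH1L2 (4.28 ± 0.182) remained at the bottom.

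Among the enzymes of serine synthesis, PHGDH and PSPH fell. PHGDH (ENSG00000092621, chr1:119648411-119744218 in hg38) oxidizes phosphoglycerate and is the entry step of the pathway. It was measured at 457, 461 and 403 CPM in DMSO replicates 1, 2 and 3 and at 238, 244 and 249 CPM in FT671 replicates 1, 2 and 3. The groups lay far apart, and the FT671 libraries were closer to each other than the DMSO libraries were. edgeR gave a log2 fold change of −0.85 (standard error, SE, 0.0731, adjusted p = 6.52e-07), or 55.3% of the DMSO level. Without DMSO replicate 3 its log2 fold change was −0.92.

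PSAT1 (ENSG00000135069, chr9:78297125-78330093), the transaminase of the middle step, was at 194, 186 and 194 CPM in DMSO and at 184, 194 and 178 CPM after FT671. The groups overlapped, with a log2 fold change of −0.05 (SE 0.0695, edgeR adjusted p = 0.602). Its 95% interval, from −0.20 to 0.10 on the log2 scale, lay above the value of PHGDH. PSPH (ENSG00000146733, chr7:56011051-56051604), the phosphatase of the last step, had the fewest counts of the 9 enzymes, between 89 and 362 in a library. It was at 25.1, 24.0 and 31.6 CPM in DMSO and at 19.8, 22.4 and 18.4 CPM after FT671. The groups did not overlap, but their nearest libraries, at 22.4 and 24.0 CPM, were close. Its log2 fold change was −0.40 (SE 0.132, edgeR adjusted p = 0.0203). PSPH lost its call without FT671 replicate 1 (log2 fold change −0.39) and without FT671 replicate 3 (log2 fold change −0.32), and the adjusted p ranged from 0.00576 to 0.126 over 16 alternatives. In DMSO replicate 3, which stood apart, PSPH was highest and PHGDH lowest of the DMSO libraries. Without this library PSPH had a log2 fold change of −0.31. The 3 enzymes together summed to 675, 671 and 628 CPM in DMSO and to 441, 461 and 445 CPM after FT671, a difference carried mostly by PHGDH.

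In mitochondria, SHMT2 and ALDH1L2 fell, whereas MTHFD2 and MTHFD1L did not pass the test. SHMT2 (ENSG00000182199, chr12:57229573-57234935) was at 560, 553 and 473 CPM in DMSO and at 393, 372 and 379 CPM after FT671. All FT671 libraries were below the lowest DMSO library, which was DMSO replicate 3. Its log2 fold change was −0.47 (SE 0.0766, edgeR adjusted p = 1.75e-04), or 72.0% of DMSO, and without DMSO replicate 3 it was −0.55. ALDH1L2 (ENSG00000136010, chr12:105019784-105107643), the dehydrogenase of formyl-tetrahydrofolate, had the largest fall of the 9 enzymes. It was at 61.8, 63.2 and 81.5 CPM in DMSO and at 33.3, 30.9 and 31.1 CPM after FT671. DMSO replicate 3 was the highest library here, and the FT671 libraries lay close together below all of them. Its log2 fold change was −1.11 (SE 0.117, edgeR adjusted p = 4.29e-06), or 46.5% of DMSO, and −0.99 without DMSO replicate 3.

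MTHFD2 (ENSG00000065911, chr2:74186172-74217565), the dehydrogenase and cyclohydrolase of the mitochondrial branch, was at 423, 416 and 437 CPM in DMSO and at 372, 402 and 399 CPM after FT671. The groups did not overlap, but the difference was small, with a log2 fold change of −0.12 (95% interval −0.26 to 0.02, edgeR adjusted p = 0.149). MTHFD1L (ENSG00000120254, chr6:150865679-151101887), the mitochondrial formate synthetase, was at 251, 251 and 248 CPM in DMSO and at 258, 243 and 237 CPM after FT671. The groups overlapped, and the log2 fold change was −0.02 (95% interval −0.17 to 0.12, edgeR adjusted p = 0.785). Both intervals lie above the log2 fold changes of SHMT2 and ALDH1L2. The signs of these small values were not stable, since MTHFD2 was at 0.04 after a correction for gene length and MTHFD1L at 0.05, and MTHFD1L was at 0.03 after a correction for GC content. Together the 4 mitochondrial enzymes summed to 1296, 1284 and 1240 CPM in DMSO and to 1056, 1047 and 1047 CPM after FT671.

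Of the 2 cytosolic enzymes, MTHFD1 rose and SHMT1 did not pass the test. MTHFD1 (ENSG00000100714, chr14:64388031-64463457), whose protein holds the cytosolic dehydrogenase, cyclohydrolase and formate ligase activities, was at 210, 223 and 222 CPM in DMSO and at 297, 325 and 336 CPM after FT671. All FT671 libraries were well above all DMSO libraries. Its log2 fold change was 0.55 (SE 0.0718, edgeR adjusted p = 2.74e-05), or 147% of DMSO, and 0.56 without DMSO replicate 3. SHMT1 (ENSG00000176974, chr17:18327860-18363563), the cytosolic serine hydroxymethyltransferase, was at 37.9, 39.6 and 36.2 CPM in DMSO and at 42.2, 41.0 and 42.2 CPM after FT671. The groups did not overlap, yet the log2 fold change of 0.14 (95% interval −0.06 to 0.34, edgeR adjusted p = 0.241) did not pass the test. SHMT1 was called higher when gene length (log2 fold change 0.25) or GC content (0.21) was corrected for, and the adjusted p ranged from 0.0327 to 0.594 over 16 alternatives.

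**Figure D2:**
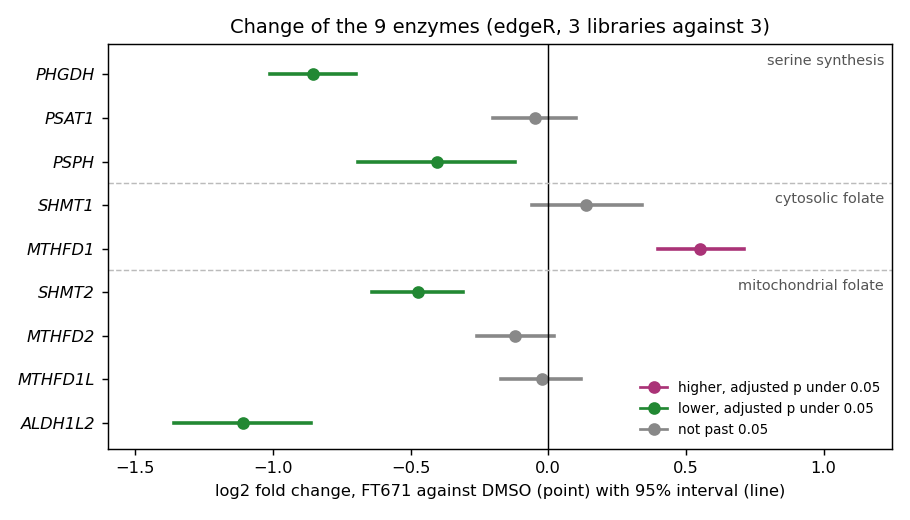
Log2 fold change of each enzyme after FT671 (x axis, points) with its 95% interval (lines) from edgeR, grouped by role. The intervals of PHGDH, PSPH, SHMT2 and ALDH1L2 lie below 0, that of MTHFD1 lies above 0, and those of PSAT1, SHMT1, MTHFD2 and MTHFD1L include 0.

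Enzymes were also set against each other within libraries, as the ratio of a mitochondrial enzyme to its cytosolic counterpart in counts per kb of transcript, which does not depend on how libraries are scaled. SHMT2 exceeded SHMT1 by 17.3, 16.4 and 15.3 times in DMSO and by 10.9, 10.6 and 10.5 times after FT671. The ratio of MTHFD2 to MTHFD1 was 1.44, 1.34 and 1.41 in DMSO and 0.896, 0.885 and 0.852 after FT671. Per kb of transcript MTHFD2 thus exceeded MTHFD1 in every DMSO library and was below it in every FT671 library. This crossing depends on the canonical lengths assumed, since in CPM MTHFD2 was above MTHFD1 in every library. The means were 425 and 218 CPM in DMSO and 391 and 319 CPM after FT671. The fall of a ratio does not depend on the lengths. The ratio of MTHFD1L to MTHFD1 was 1.09, 1.03 and 1.02 in DMSO and 0.794, 0.683 and 0.646 after FT671. Per kb this pair thus went from near parity to an excess of the cytosolic enzyme. On the log2 scale the 3 ratios fell by 0.61, 0.67 and 0.57, and the groups did not overlap in any of them. The ratios with MTHFD1 share its values, and since MTHFD2 and MTHFD1L did not pass the test on their own, their falls are not separate from the rise of MTHFD1. The two-sided exact permutation test gave p = 0.1 for each (0.1 after Benjamini-Hochberg adjustment over the 4 ratios), the smallest p that 3 libraries against 3 allow, so that the test cannot pass 0.05. The ratio of PHGDH to PSAT1, chosen after the values were seen, was 2.79, 2.93 and 2.45 in DMSO and 1.53, 1.49 and 1.65 after FT671 (exact permutation p = 0.1).

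**Figure D3:**
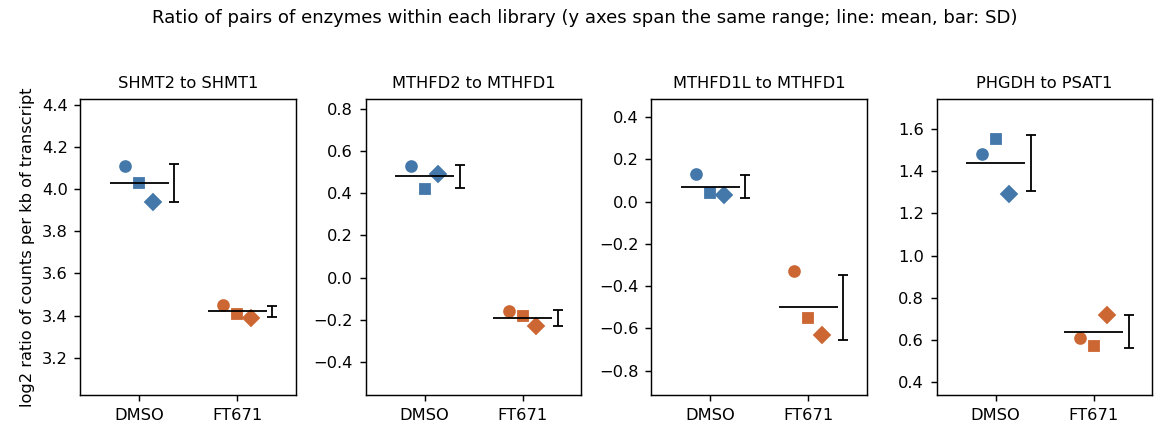
Log2 ratio of 2 enzymes within each library (y axis, counts per kb of transcript), with the mean as a line and the SD of 3 libraries as a bar. In all 4 pairs the FT671 libraries lie below the DMSO libraries.

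The strand setting of the counting is not given in the sources used here, so genes on the opposite strand that share exon bases with an enzyme were listed. MTHFD1 shares 1556 exon bases with the lncRNA gene ENSG00000272909, which had 161 to 421 counts in the DMSO libraries and itself rose (log2 fold change 0.59, edgeR adjusted p = 5.13e-04). MTHFD1 had 1202 to 3030 counts in the same libraries. It also shares 186 bases with the lncRNA gene ENSG00000258824 (log2 fold change 1.28, edgeR adjusted p = 0.00759). A further 178 are shared with ZBTB25 (log2 fold change 0.29, edgeR adjusted p = 0.146). ALDH1L2 shares 145 bases with NOPCHAP1 and 131 with WASHC4, which both rose (log2 fold changes 0.53 and 0.43), opposite to ALDH1L2. SHMT2 shares 33 bases with NDUFA4L2, whose log2 fold change was −0.80, and 352 with the lncRNA gene ENSG00000276727 (0.38, edgeR adjusted p = 0.456). MTHFD2 shares 1324 bases with SLC4A5, whose log2 fold change was 0.06, and 295 with ENSG00000264324 (0.00). SHMT1 shares 197 bases with SMCR8, whose log2 fold change was −0.16 (edgeR adjusted p = 0.12). PHGDH, PSAT1 and PSPH overlap no other annotated gene. Copies of PSAT1, PSPH, SHMT1, MTHFD1 and MTHFD2 elsewhere in the genome, found by gene symbol, had at most 9 counts in a library. Reads shared with such copies cannot be assigned.

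Promoter windows from 250 bases before to 50 after the start were taken from a table of RefSeq (GRCh38.p14) sequences for 6 of the 9 enzymes, and PSPH, SHMT2 and ALDH1L2 were not analysed here. The windows were searched on both strands for TGATGNAA, the core of the C/EBP-ATF response element that ATF4 binds, for CACGTG, the E-box that MYC binds, and for TGACNNNGC, the core of the antioxidant response element. These motifs were present in 3.62%, 7.23% and 13.3% of all 34943 windows. MTHFD1L had several windows and the other enzymes a single one each, so more of its sequence was searched. Its sites lie in overlapping windows, and its window starting at chr6:151006758 held no match. The sites below are shown because they include MTHFD1, which rose, and MTHFD1L, whose windows held the only match to the ATF element. The motif is in capitals, and both enzymes are on the plus strand.
MTHFD1L, chr6:150866346-150866375: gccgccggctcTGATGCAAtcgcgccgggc
MTHFD1L, chr6:150866320-150866349: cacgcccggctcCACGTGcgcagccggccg
MTHFD1, chr14:64388326-64388355: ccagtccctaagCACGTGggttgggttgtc
MTHFD2, chr2:74198611-74198640: ttccctcccgGCGCAGTCAccggcgcggtc
The site of MTHFD2 is the antioxidant element read on the minus strand. The windows of PHGDH, PSAT1 and SHMT1 held none of these letters. A match is a description of the sequence and does not show that a factor binds there.

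The rest of the pathway was examined with 5 lists of related genes, of which 54 of 67 genes passed the filter, and edgeR called 20 lower and 12 higher at an adjusted p of 0.05. Over all genes tested 26.5% were lower and 23.6% were higher, so the share of higher genes in these lists was near the background. Among 15 other enzymes of the folate cycle, 14 were tested, 2 were lower (26.5% of all genes) and 3 were higher (23.6% of all genes), with a median log2 fold change of 0.13. Neither share was above the background. MTR, the methionine synthase, rose from 78.7 ± 11.6 to 155 ± 4.83 CPM (means ± SD, n = 3 each, log2 fold change 0.99, adjusted p = 1.95e-06). ALDH1L1, the cytosolic counterpart of ALDH1L2, was near the detection floor at 2.62 ± 0.545 and 1.65 ± 0.330 CPM (log2 fold change −0.78, adjusted p = 0.0421), and its call was lost in 11 of 15 alternatives, where the adjusted p ranged from 0.0235 to 0.268. MTHFD2L, the paralog of MTHFD2, was at 18.1 ± 2.10 and 19.4 ± 0.735 CPM (log2 fold change 0.09, adjusted p = 0.568). TYMS, the thymidylate synthase, had a log2 fold change of 0.07 and did not pass the test (adjusted p = 0.379). TYMS overlaps ENOSF1. TYMS was called higher after the GC correction (log2 fold change 0.14), with an adjusted p between 0.027 and 0.85 over the 16 alternatives.

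Of 14 genes for transport of folate, serine and glycine, 12 were tested, 7 were lower (26.5% of all genes) and 2 were higher (23.6% of all genes), with a median log2 fold change of −0.27. SLC6A9, the glycine transporter, fell most, from 47.4 ± 2.22 to 18.7 ± 3.63 CPM (log2 fold change −1.34, adjusted p = 1.58e-06). SLC1A5, a carrier of neutral amino acids, fell from 649 ± 43.5 to 331 ± 36 CPM (log2 fold change −0.97, adjusted p = 7.82e-07). SLC25A32, the mitochondrial folate carrier, fell from 6.59 ± 0.787 to 3.53 ± 0.210 CPM (log2 fold change −0.94, adjusted p = 0.0015). SLC1A5, SLC25A32 and SLC6A9 share exon bases with genes on the opposite strand. SLC1A5 shares 780 with the lncRNA gene ENSG00000275719, which had 1303 to 3930 counts in the DMSO libraries. SLC1A5 had 3250 to 9903 counts in the same libraries, and the part of shared reads in its value was not tested. SLC25A32, with a canonical transcript of 2891 bases, also shares 2547 exon bases with an annotated gene on its own strand. That gene had 0 counts in every library, and reads from shared bases cannot be assigned, so the level of SLC25A32 is uncertain. The list as a whole summed to between 1427 and 1480 CPM in DMSO and between 943 and 1005 CPM after FT671.

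Of 10 genes for glycine cleavage and for serine or glycine breakdown, 5 were tested and 1, SDSL, a serine dehydratase-like gene, was lower, where 26.5% of all genes were (log2 fold change −0.55, adjusted p = 0.0111). GLDC, the decarboxylase of glycine cleavage, had 0 counts in every library. SDSL lost its call in 3 of 16 alternatives, namely without DMSO replicate 1 (log2 fold change −0.48), without FT671 replicate 3 (−0.48) and with DESeq2's Wald test (−0.54), and the adjusted p ranged from 0.00336 to 0.0706. In the methionine cycle and transsulfuration, 7 of 11 genes were tested, 3 were lower (26.5% of all genes) and 2 were higher (23.6% of all genes). CBS and CTH, the enzymes that turn homocysteine into cysteine, had log2 fold changes of −1.02 (adjusted p = 0.00121) and −0.58 (adjusted p = 8.31e-05). RefSeq lists a second copy of CBS on the same chromosome, so the level of CBS is uncertain. AHCYL1, a relative of adenosylhomocysteinase, had a log2 fold change of −0.71 (adjusted p = 1.58e-06).

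Of 17 amino acid stress response genes, 16 were tested, 7 were lower (26.5% of all genes) and 5 were higher (23.6% of all genes), with a median log2 fold change of −0.04. ATF4 rose from 310 ± 13.2 to 403 ± 13.8 CPM (log2 fold change 0.38, adjusted p = 3.96e-04). TRIB3 and ATF5 fell with log2 fold changes of −1.71 (adjusted p = 3.07e-08) and −1.23 (adjusted p = 5.11e-08). ATF3, a stress-induced factor of the same family, rose with a log2 fold change of 1.62 (adjusted p = 5.15e-08). MYC fell from 358 ± 16.8 to 241 ± 5.64 CPM (log2 fold change −0.57, adjusted p = 1.22e-05), and it overlaps CASC11 on the opposite strand. Of 18 proliferation genes, 6 were lower (26.5% of all genes), 2 were higher (23.6% of all genes) and 10 did not pass the test. Their log2 fold changes ranged from −1.44 (PCNA) to 0.45 (MCM4). Their summed expression, in which opposite changes can cancel, was between 4301 and 4582 CPM in DMSO and between 4499 and 4557 CPM after FT671. Their part in the change of the enzymes was not tested. Adjusted p-values for these lists come from the same edgeR fit over all genes tested.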

How the data were processed

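RNA-seq libraries of K562 cells (3 DMSO, 3 FT671) were analysed from the read counts per gene that the authors deposited without normalization. According to the study's methods the authors aligned paired-end NextSeq500 reads with STAR (two-pass, hg38), which also made the counts. The STAR version, annotation release and strand setting are not given in the sources used here. For the 6 ChIP samples no values were used here. Symbols, positions and lengths came from GENCODE release 44 for 60295 of 60609 genes, and the other 314 (0.0609% of the counts) were kept.

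Python 3.11.15, R 4.3.3, edgeR 4.0.16 and DESeq2 1.42.0 were used. Genes were filtered with filterByExpr, TMM gave the scaling, and the edgeR quasi-likelihood test was fitted to the 6 libraries with treatment as the only term. The study's methods used DESeq2, which was run as an alternative. A standard error is the log2 fold change divided by the square root of F, and CPM uses TMM-scaled library sizes. The members and lists were chosen with earlier results of these data known. Named genes outside the enzymes are the 3 with the largest change in each list among those past an adjusted p of 0.05 whose mean reached 1 CPM, and MTHFD2L, ALDH1L1, TYMS, ATF4, MYC and genes overlapping or copying an enzyme. Some genes that this rule names are not reported here. USP7, the marker genes, GLDC and the carriers of the marker sums were added after their values were seen. The fits were tested on simulated data. The labels do not say that replicates came from separate cultures, but a figure legend of the study gives 3 independent experiments. The p-values measure the spread between these libraries. The alternatives were other scalings, filters and tools, the replicate block, corrections for gene length and GC content by loess (span 0.3), and leaving out each library. Both corrections used all annotated exons of a gene merged, whereas levels and ratios used the canonical transcript. For SHMT1 these lengths are 7015 and 2527 bases.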

Additional observations from a re-analysis of the deposited data

How the results depend on the processing

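PHGDH, MTHFD1, SHMT2 and ALDH1L2 kept their direction and their call at 0.05 under all 16 alternatives, with log2 fold changes of −0.92 to −0.70, 0.51 to 0.68, −0.55 to −0.39 and −1.18 to −0.96. Of 144 values over the 9 enzymes, 131 kept direction and call, 2 (PSPH) lost the call, 4 (SHMT1) gained it and 7 changed sign without a call. The 7 were MTHFD2 (0.0378 after the gene length correction, 0.0379 with the replicate block added) and MTHFD1L (0.0453 and 0.0468 in the same fits, 0.0321 and 0.0327 after the GC correction without and with the block, and 0.00494 without FT671 replicate 3, the highest of its 6 fits leaving out a library, of which the lowest was −0.0559). The number of enzymes higher at 0.05 was 2 after the gene length and the GC correction, each with and without the block. At 1e-05, where 0 were higher, the number was 1 without the filter on low counts, with the replicate block, with DESeq2's Wald test and with either correction, with or without the block. Over the fits leaving out 1 library it was between 0 and 1, and the number lower at 1e-05 was between 0 and 3. The number lower at 1e-05 was 2 with the replicate block and 3 with DESeq2's Wald test, without the filter, and with the GC correction and the block. The cause was not tested. The GC correction with the block was chosen after seeing the data.

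Same-numbered libraries deviated from their group means with a Pearson's r across genes of 0.115, −0.0605 and 0.14. Libraries with different numbers had values from −0.168 to 0.125. Such weak values from 3 libraries per group cannot decide whether the numbers pair the libraries. With the replicate block 4 enzymes were lower and 1 was higher at 0.05, as without it. Among the other named genes the block ended the call of ALDH1L1 (log2 fold change −0.659). The 3 ratios of a mitochondrial to a cytosolic enzyme differed by −0.70 to −0.51 over their own alternatives. These were 1 count added to both genes, differences within same-numbered libraries, and leaving out each library. Since the groups do not overlap, leaving out a library could not change the sign. The corrections for gene length and GC content were not applied to the ratios. PSPH had the fewest counts of the enzymes, 89 to 362 in a library, and depth was not separated from the spread between libraries.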
